A study of Mus musculus with 9 samples.

Results

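Subset II erythroblasts, a sorted stage of the nucleated red cell precursors of the bone marrow, were compared between wild type C57BL/6J mice given a low iron diet for 7 weeks after weaning and wild type C57BL/6J mice given normal diet. The comparison uses 6 of the 9 arrays of the series, 3 for each diet. The other 3 arrays, of mice given the low iron diet for 3 weeks, are quoted only as levels beside those of 7 weeks, because both times share the same normal diet arrays. All mice are labelled female, and no group carries a transgene or a deletion. Whether an array is 1 mouse or a pool, how old the normal diet mice were and which surface markers define subset II are not given in the sources used here, so p-values measure the spread between these arrays. RNA was amplified, labelled with Cy3 and hybridised to a 1-colour Agilent 60K mouse array. A level is the log2 scanner signal minus the 75th percentile of that array, and a difference is the mean level at 7 weeks minus that on normal diet, given with the standard error (SE) of limma. Genes whose adjusted p was under 0.05 over all 14237 genes tested are called higher (rose) or lower (fell).

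Erythroblasts take up more iron than any other cell, because each makes haemoglobin in bulk: transferrin receptor brings iron in, mitoferrin carries it into the mitochondrion, and ferrochelatase places it in heme. The hormone erythropoietin acts through its receptor, the kinase Jak2 and the transcription factor Stat5, which switches on survival genes together with its own brakes, the Cish and Socs proteins, and the hormone erythroferrone. When iron is short, heme-regulated kinase signalling, ferroportin and the rate of division are all known to adjust. At the end of maturation the cells stop dividing, condense the nucleus and clear their mitochondria by mitophagy, the process named in the title of the study.

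Several features of the arrays bear on every value. Each group was hybridised on a slide of its own and scanned apart, so slide, scan and diet cannot be told apart. The 75th percentile of the signal was 1499 to 1616 on the normal diet arrays and 792 to 1087 at 7 weeks, and 65.5% to 66.3% against 45.2% to 53.6% of spots were well above background. The control RNA spots lay 0.57 to 1.74 above the 75th percentile on normal diet and 4.42 to 5.36 above it at 7 weeks. Their log2 signal without that subtraction was also higher at 7 weeks, 14.5 to 15.1 against 11.2 to 12.3 on normal diet. Correlations between arrays of a group were 0.982 to 0.988 on normal diet and 0.908 to 0.958 at 7 weeks, and the SD over the 3 arrays was larger at 7 weeks for 11296 genes (79.3%). Normal diet replicates 1 and 2 went against their female label: the Y-linked Eif2s3y stood at 5.12 and 4.82 there and at -3.77 on replicate 3, while Xist stood at -5.59 and -5.24 against -0.73. The 7 week arrays, like replicate 3, had Xist at 0.12, -1.16 and -0.37. Against normal diet replicate 3 alone the 2855 genes called below could not turn direction, because the diets overlap in none of them. The part of sex in the calls was not tested.

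Of 14237 genes, 2855 (20.1%) differed after 7 weeks, 1001 higher (7.03%) and 1854 lower (13.0%), and the median difference over all genes was -0.28. In each of those 2855 genes the 3 arrays of one diet lay wholly above the 3 of the other. In bulk RNA fewer cells of a type and less RNA per cell cannot be told apart. Groups that did not overlap were common in general, with 18.0% of all genes higher and 29.8% lower on every 7 week array. These calls rested on the normal diet arrays: without normal diet replicate 1, 2 or 3 there were 2, 840 and 33 calls, and without 7 week replicate 1, 2 or 3 there were 4360, 1190 and 2615. Where counts without a normal diet array are given below, they follow the order of replicates 1, 2 and 3. Only Socs3 and Cd209f were called in all 6 of these fits. All 2855 genes kept their direction in each, which was fixed because their groups do not overlap. Without scaling between arrays the split was 315 higher and 5462 lower, and with no filter on dim probes it was 3911 higher and 2204 lower, so the balance of rises and falls depended on both choices.

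Very bright spots behaved apart from the rest. Among the 133 genes at 40% of the saturation value or more, 27 rose and 0 fell, with a median difference of 0.79 after scaling and -0.02 without it. The 286 genes between 20% and 40% had 31 rises and 6 falls (median 0.31 scaled, -0.49 unscaled). The 13818 dimmer genes had 943 rises (6.82%) and 1848 falls (13.4%), with medians of -0.31 and -1.11. No spot was marked as saturated, yet the brightest spots gave nearly the same raw signal on both diets while the percentile used for scaling was lower at 7 weeks. Called rises of genes at 20% of saturation or more are therefore given below with their unscaled difference.

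**Figure D1:**
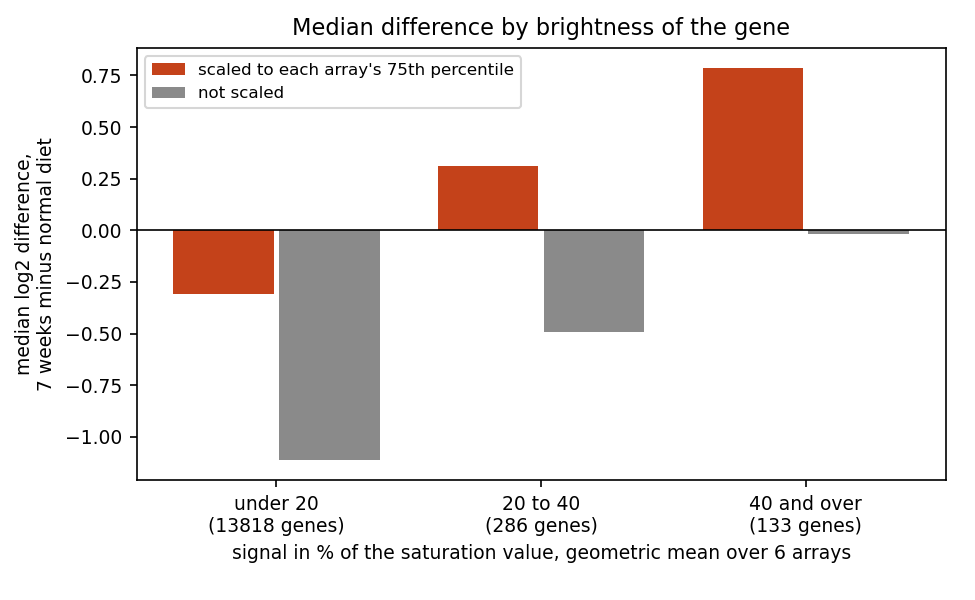
Median log2 difference, 7 weeks minus normal diet, over genes in 3 classes of signal given as percent of the saturation value, with each array's 75th percentile subtracted and without it. The scaled median climbs from -0.31 in the dimmest class to 0.79 in the brightest, where the unscaled median is -0.02.

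Negative regulators of erythropoietin signalling rose in the 7 week erythroblasts. Socs3, a cytokine-induced protein that blocks Jak kinases, stood at -3.11, -2.21 and -2.73 on normal diet and at 5.11, 4.90 and 4.79 after 7 weeks. The groups lay far apart and each was tight; the difference of 7.62 ± 0.33 (SE, adjusted p = 0.00103) is a 196-fold rise, and it was 7.66 against normal diet replicate 3 alone. At 3 weeks the same probe read 1.05, 0.98 and -0.94. Among the 5 rising members of the erythropoietin and Stat5 list with a promoter in the RefSeq table, 2 hold the Stat motif TTCNNNGAA on either strand, against 7.44% of the promoters of all genes tested. The promoters searched run from 250 bases before the start to 50 after it. That of Socs3 is shown because its motif lies in the part before the start. Printed are the 250 bases before the start at chr11:117969367-117969616, minus strand, GRCm38.p6, from RefSeq, read 5′ to 3′. The motif is in capitals, 154 bases before the start.
Socs3: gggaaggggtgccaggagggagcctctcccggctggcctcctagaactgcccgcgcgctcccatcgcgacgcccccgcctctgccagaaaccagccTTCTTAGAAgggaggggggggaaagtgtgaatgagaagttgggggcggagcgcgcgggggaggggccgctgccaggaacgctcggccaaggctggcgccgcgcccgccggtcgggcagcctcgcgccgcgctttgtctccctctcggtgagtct

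Of 22 measured members of that list, 7 rose (7.03% of all genes did) and 3 fell (13.0%), and the median difference was 0.76 (-0.04 without scaling, 0.81 against normal diet replicate 3 alone). Erfe, the erythroblast hormone that lowers hepcidin, read -0.71, -0.78 and -0.58 on normal diet and 4.03, 3.53 and 4.21 at 7 weeks. Every 7 week array exceeded every normal diet array by over 4 units; the difference was 4.61 ± 0.30 (adjusted p = 0.00411), and 3.50 on the other probe of Erfe. Its level was already 3.91, 4.71 and 2.93 at 3 weeks. Cish, a Stat5 target that competes for the receptor, went from 3.63, 4.04 and 3.89 to 8.11, 6.75 and 7.03. All 3 levels at 7 weeks lay above normal diet, replicate 1 highest, for a difference of 3.44 ± 0.41 (adjusted p = 0.0111). Socs2 read -3.46, -3.72 and -3.00 against -0.57, 1.26 and 1.77, a rise of 4.21 ± 0.62 (adjusted p = 0.0135), with its 2 other probes at 4.87 and 3.99. Here replicate 1 was the lowest of the 7 week arrays. Socs1 (2.10 ± 0.49, adjusted p = 0.0324) and Stat3 (1.45 ± 0.39) also rose.

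Other members of the list fell. The adaptor Gab1 fell by 3.52 ± 0.71 (adjusted p = 0.0238), Stat5a fell by 2.15 ± 0.48 (adjusted p = 0.029) and Jak2 fell by 1.45 ± 0.38 (adjusted p = 0.04). The receptor Epor read 6.82, 6.84 and 6.79 on normal diet and 6.34, 5.37 and 6.18 at 7 weeks, a difference of -0.85 ± 0.34 that missed the threshold (adjusted p = 0.114). Survival targets were not called: Pim1 differed by 1.21 ± 0.87 and Bcl2l1, which encodes Bcl-xL, by 1.06 ± 0.52, with the other Bcl2l1 probe at -2.74. The rising members numbered 1, 4 and 2 without a normal diet array, and 4 without 7 week replicate 2. The falls of the list numbered 0 in each of these fits. With only probes above background on all 6 arrays 7 of 18 members rose and 2 fell. Among 10 measured MAP kinase brakes, Spry1 rose by 4.41 ± 0.69 (adjusted p = 0.015) and the phosphatase Dusp1 fell by 1.43 ± 0.30. With only probes above background on all 6 arrays 7 brakes were measured, of which 0 rose and 1 fell. Among all genes 7.03% rose and 13.0% fell. Rises of these brakes numbered 0, 1 and 0 and the falls 0 without a normal diet array.

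**Figure D2:**
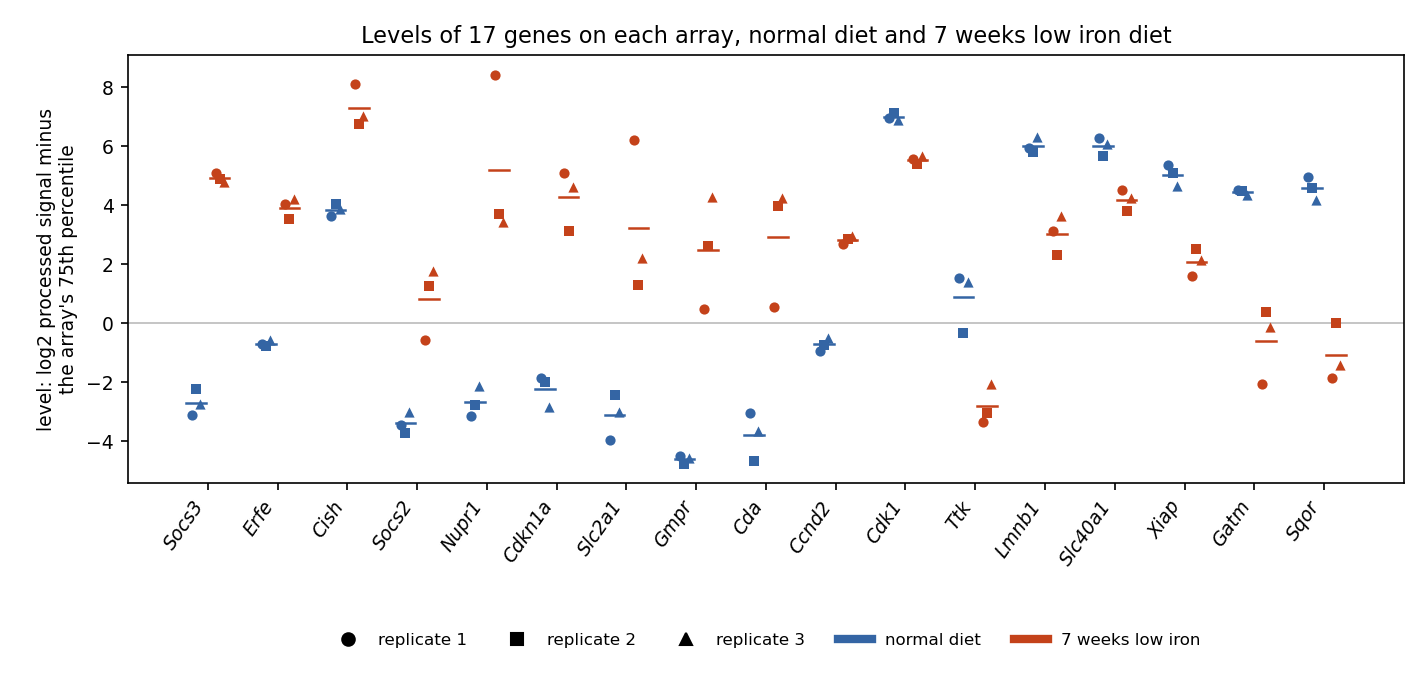
Level of 17 genes on each array, as log2 signal minus the array's 75th percentile, with a point per replicate and a line at the mean of each group (normal diet and 7 weeks of low iron). Socs3 and Erfe separate the diets with tight groups, while Nupr1 and Slc2a1 are higher on 7 week replicate 1 (8.43 and 6.23) than on the other two arrays.

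Brakes of the cell cycle rose in part. Cdkn1a, the p21 inhibitor of cyclin-dependent kinases and a target of p53, read -1.87, -1.99 and -2.84 on normal diet and 5.10, 3.14 and 4.62 at 7 weeks. The groups did not meet, and the rise of 6.52 ± 0.57 (adjusted p = 0.00666; 4.55 on its other probe) was 91.7-fold. Of 30 measured cell cycle inhibitors and p53 targets 5 rose and 2 fell (7.03% and 13.0% of all genes), with a median of 0.45; without 7 week replicate 1, 5 rose and 6 fell and the median was -0.19. The other risers were Phlda3, an inhibitor of Akt (3.79 ± 0.90), Gadd45g (2.65 ± 0.32), the kinase Plk3 (2.12 ± 0.39) and the exonuclease Aen (2.08 ± 0.33). The fallers were the pocket protein Rbl2 (-1.57 ± 0.36) and Cdkn2c (-0.98 ± 0.26). Trp53 itself differed by -0.05 ± 0.58, Mdm2 by 0.51 ± 0.36 and Cdkn1b, the p27 inhibitor, by -1.55 ± 0.61, none of them called. In this list 23 of 30 members were highest on 7 week replicate 1, where the median was 1.67 against -0.54 and 0.03 on replicates 2 and 3. With a normal diet array left out the risers numbered 0, 3 and 1.

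Genes of G2 and mitosis were lower as a group. Of 88 measured members 47 fell and 0 rose, the median difference was -1.21 (-1.32 against normal diet replicate 3 alone), and 82 of 88 lay below 0; among all genes 13.0% fell. On 67 of the 88 the 7 week arrays lay wholly below normal diet, as they did on 29.8% of all genes. Per 7 week array the median was -1.27, -1.37 and -0.99, so the 3 arrays were alike in this list. Cdk1, the kinase that drives entry into mitosis, read 6.95, 7.14 and 6.90 on normal diet and 5.58, 5.40 and 5.69 at 7 weeks. Both groups were tight, and the difference was -1.45 ± 0.26 (adjusted p = 0.0194), with -1.80 and -1.72 on its other probes. Ttk, a kinase of the spindle checkpoint, went from 1.54, -0.31 and 1.41 to -3.33, -3.05 and -2.07 and fell by 3.70 ± 0.60 (adjusted p = 0.0162). Lmnb1, the lamin B1 of the nuclear envelope, went from 5.94, 5.81 and 6.33 to 3.12, 2.32 and 3.63 and fell by 3.00 ± 0.40 (adjusted p = 0.0121).

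The falls covered most parts of the mitotic machinery. In the kinetochore, the plate that binds microtubules, Ska3 fell by 3.33 ± 0.62, Ndc80 fell by 3.11 ± 0.68, Nuf2 fell by 2.27 ± 0.40 and Spc25 fell by 1.49 ± 0.29, while Spc24 differed by 0.59 ± 0.28 (adjusted p = 0.174). Checkpoint genes Bub1 (-2.24 ± 0.38), Mad2l1 (-1.18 ± 0.29) and Bub3 (-1.07 ± 0.27) and the kinases Aurkb (-2.16 ± 0.36) and Aurka (-1.51 ± 0.33) fell as well. So did the motor proteins Kif18a (-2.55 ± 0.34), Kif11 (-1.99 ± 0.39) and Kif20a (-1.94 ± 0.29), the condensins Ncapg (-2.44 ± 0.46), Smc2 (-1.36 ± 0.30) and Smc4 (-1.25 ± 0.27), and the cytokinesis genes Anln (-2.56 ± 0.28), Ect2 (-2.29 ± 0.28) and Racgap1 (-1.23 ± 0.27). Plk1 (-0.83 ± 0.27, adjusted p = 0.0683) and the cyclins Ccnb1 (-0.83 ± 0.27, adjusted p = 0.0743) and Ccnb2 (-0.90 ± 0.27, adjusted p = 0.0583; -1.70 unscaled) were below normal diet on every array and missed the threshold. Mki67, the proliferation antigen, differed by 0.62 ± 0.26 and Birc5, survivin, by 0.22 ± 0.25. Both lie above 20% of saturation, neither passed the test, and their unscaled differences were -0.18 and -0.58; the other Birc5 probes read -1.02 and -0.53. The 47 falls became 0, 23 and 0 without a normal diet array and 22 without 7 week replicate 2, while 55 were called without 7 week replicate 1.

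Promoters of this list share letters known from cell cycle genes. The cell cycle homology region (TTTGAA or TTCGAA) was found on either strand of 73.0% of the 37 fallers with a promoter of 300 bases in the RefSeq table, against 15.4% of the genes tested, and CCAAT, the box bound by NF-Y, in 67.6% against 39.3%. Both together were in 59.5% against 6.65%. The 35 members that were not called held both as often, in 60.0%, so the letters go with membership of the list and do not separate its fallers. Over all 1475 fallers with a promoter the share was 8.81%. Both lay within the 250 bases before the start in at least 10 of the 37 fallers of the list. Those bases are given for 3 of these, read 5′ to 3′ from RefSeq (GRCm38.p6), to show the spacing of the 2 motifs, which are in capitals. They are Depdc1a at chr3:159495183-159495432, plus strand, with motifs 39 and 16 bases before the start; Ncapg at chr5:45669675-45669924, plus strand, at 176 and 30; and Ect2 at chr3:27153879-27154128, minus strand, at 114, 96 and 55.
Depdc1a: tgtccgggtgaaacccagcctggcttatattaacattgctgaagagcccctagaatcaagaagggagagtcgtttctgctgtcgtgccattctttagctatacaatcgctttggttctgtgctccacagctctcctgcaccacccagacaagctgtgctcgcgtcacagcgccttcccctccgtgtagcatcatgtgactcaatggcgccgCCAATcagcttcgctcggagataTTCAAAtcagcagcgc
Ncapg: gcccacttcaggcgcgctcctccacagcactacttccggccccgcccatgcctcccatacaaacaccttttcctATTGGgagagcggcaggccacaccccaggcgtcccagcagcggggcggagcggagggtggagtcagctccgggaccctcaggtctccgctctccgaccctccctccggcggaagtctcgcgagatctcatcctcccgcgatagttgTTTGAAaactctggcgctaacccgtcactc
Ect2: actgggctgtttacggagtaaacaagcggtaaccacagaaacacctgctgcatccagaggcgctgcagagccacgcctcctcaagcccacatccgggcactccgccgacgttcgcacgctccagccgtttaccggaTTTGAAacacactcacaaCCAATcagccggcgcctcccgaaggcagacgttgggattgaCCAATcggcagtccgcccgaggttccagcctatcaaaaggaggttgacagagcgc

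**Figure D3:**
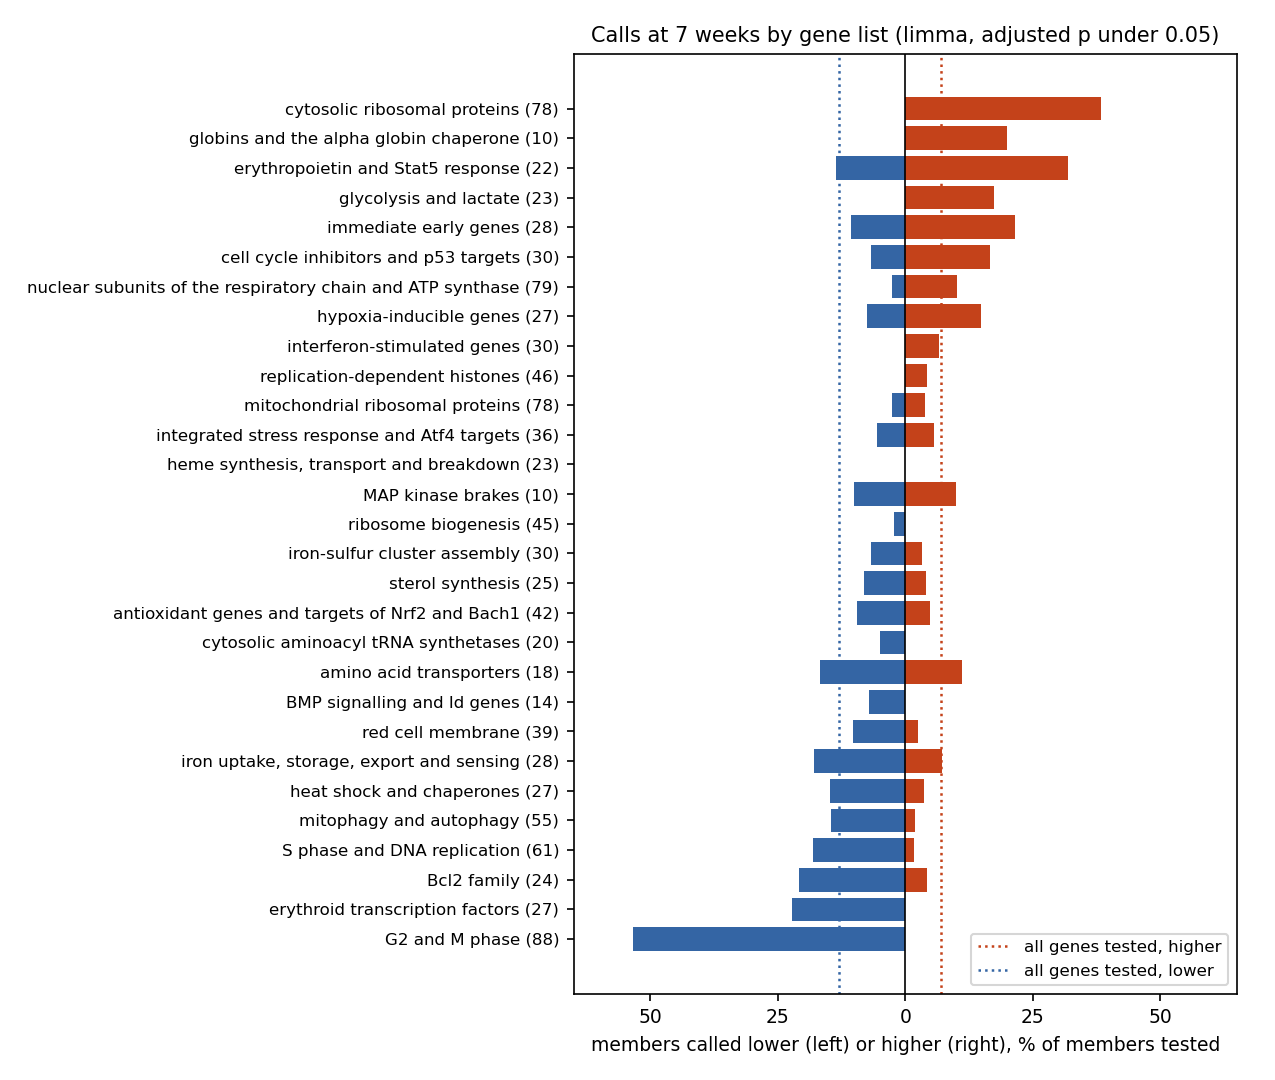
Percent of the measured members of 29 gene lists called lower and higher at 7 weeks, with dotted lines at the percent of all genes called in each direction (13.0% lower, 7.03% higher). The G2 and M phase list has 47 of 88 members lower, and the cytosolic ribosomal proteins, nearly all of them bright spots, have 30 of 78 higher.

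S phase genes had a median of -1.25 (-1.15 against normal diet replicate 3 alone), and 11 of 61 fell and 1 rose, against 13.0% and 7.03% of all genes. The riser was Ccnd2, the D-type cyclin of the G1 phase, at -0.92, -0.72 and -0.50 on normal diet and 2.68, 2.86 and 2.95 at 7 weeks. Both groups were tight and apart, for a difference of 3.55 ± 0.27 (adjusted p = 0.00447), and at 3 weeks Ccnd2 read 0.76, 1.80 and 1.37. Its relative Ccnd1 was not well above background on any 7 week array and was at least 2.51-fold lower. Ccnd1 entered the test only through normal diet, so its call supports nothing by itself. A bound like this sets the mean of the brighter group against the lowest measurable signal of the other arrays. With only probes above background on all 6 arrays 10 of 57 S phase genes fell and 1 rose. Ccnd3, the third D-type cyclin, differed by -0.60 ± 0.51. Fallers were the cyclin Ccne2 (-3.65 ± 0.67), Pola2 of DNA polymerase alpha (-3.43 ± 0.92), the helicase loader Cdc45 (-3.25 ± 0.64), Slbp, which binds histone mRNA (-3.04 ± 0.81), and the origin protein Orc1 (-1.91 ± 0.37). The 7 week arrays disagreed here: 57 of 61 members were lowest on replicate 1, and the median was -2.84 there against -0.67 and -0.40 on replicates 2 and 3. Pcna, the clamp of the replication fork, read 7.98, 7.96 and 7.73 on normal diet and 4.95, 7.58 and 7.68 at 7 weeks. The S phase falls numbered 0, 5 and 0 without a normal diet array, and 3 without 7 week replicate 2.

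Some genes of iron handling fell, and the 2 that were called higher are very bright spots. Slc40a1, ferroportin, the only known exporter of iron, read 6.29, 5.68 and 6.08 on normal diet and 4.51, 3.83 and 4.24 at 7 weeks, with 5.38, 5.16 and 5.67 at 3 weeks. The 7 week arrays were all lower, and the fall was 1.82 ± 0.32 on the log2 scale (adjusted p = 0.0183; -1.89 against normal diet replicate 3 alone). Of 28 measured members 5 fell and 2 rose (13.0% and 7.03% of all genes), with a median of -0.39. The metal transporters Slc39a8 (-2.63 ± 0.67), Slc11a1 (-2.09 ± 0.54) and Slc11a2 (-1.36 ± 0.28), the last of which carries iron out of the endosome, fell, and so did Twsg1 (-2.58 ± 0.42), an erythroblast factor that acts on BMP signals. The ferritin chains that store iron, Fth1 and Ftl1, were called higher at 0.97 ± 0.27 (adjusted p = 0.0478) and 1.08 ± 0.29 (adjusted p = 0.0429); both are above 40% of saturation, and their unscaled differences were 0.16 and 0.28. Transferrin receptor, Tfrc, read 7.04, 6.15 and 7.33 against 8.30, 6.92 and 7.34, overlapping groups with a difference of 0.68 ± 0.48 (-0.13 unscaled) and other probes at -1.39 and -1.68. Mitoferrin, Slc25a37, differed by 0.39 ± 0.26 (-0.42 unscaled). Gdf15, a stress-induced relative of the TGF-beta family, read 6.23, -0.24 and 1.38 at 7 weeks against -2.30, -2.17 and -2.24, and its difference of 4.69 ± 1.51 missed the threshold (adjusted p = 0.0688). Falls of iron genes numbered 0, 3 and 0 without a normal diet array, and 2 without 7 week replicate 2.

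Heme synthesis, transport and breakdown had 0 calls by limma among 23 members, with a median of 0.02 and 7 members at an unadjusted p under 0.05; with all 9 arrays in the fit 3 rose and 2 fell. Alas2, the erythroid enzyme that starts the pathway and whose mRNA is held back when iron is short, differed by 0.84 ± 0.29 (adjusted p = 0.0855), Fech, ferrochelatase, by 0.69 ± 0.26 and Urod by 0.60 ± 0.31. These 3 are above 40% of saturation, and their unscaled differences were 0.03, -0.12 and -0.21. Alad (0.13 ± 0.30; -0.68 unscaled) and the heme oxygenase Hmox1 (0.71 ± 0.44) overlapped between the diets. Of 10 globins 2 were called higher (7.03% of all genes were), the theta-like Hbq1a (1.57 ± 0.43) and the bright Hbb-b2 (1.01 ± 0.28, 0.20 unscaled). The list's median of 0.80 was 0.16 under quantile normalization and 0.00 without scaling. Neither call was left without any 1 normal diet array. In iron-sulfur cluster assembly the desulfurase Nfs1 (-1.37 ± 0.31) and the scaffold Nubp2 (-1.82 ± 0.40) fell and Bola2 rose (1.73 ± 0.43), out of 30 members. Among all genes 13.0% fell and 7.03% rose. Without a normal diet array the falls of this list numbered 0, 1 and 0 and the rises 0.

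Most erythroid identity genes were not called, with some falls among transcription factors and cofactors. Gata1 differed by 0.10 ± 0.35, Klf1 by -0.08 ± 0.35 and Tal1 by 0.22 ± 0.28. Of 27 erythroid transcription factors 6 fell and 0 rose (13.0% and 7.03% of all genes), with a median of -0.41. The fallers were Ikzf1 (-2.19 ± 0.52), Sox6 (-2.02 ± 0.51), Ssbp3 (-1.79 ± 0.39), Mxi1 (-1.74 ± 0.36), Klf13 (-1.70 ± 0.33) and Ldb1 (-1.40 ± 0.37), the bridge between Gata1 and distant enhancers. In the red cell membrane list 4 of 39 fell, a smaller share than the 13.0% of all genes. The urea transporter Slc14a1 (-2.27 ± 0.29), Cd36 (-2.24 ± 0.38) and the integrin Itga4 (-1.20 ± 0.33) were among them, while Sptb, beta spectrin, rose by 2.11 ± 0.41. Cd36 and Itga4 are known from younger erythroblasts. No transcription factor of the list was called without any 1 normal diet array or without 7 week replicate 2, and the membrane falls numbered 0, 2 and 0 without a normal diet array and 2 without 7 week replicate 2. Without 7 week replicate 1, 8 transcription factors and 11 membrane genes fell.

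Among genes of oxygen shortage and glycolysis a small number rose. Slc2a1, the glucose transporter Glut1, read -3.94, -2.42 and -3.00 on normal diet and 6.23, 1.29 and 2.23 at 7 weeks. Replicate 1 was far above the others, and the rise was 6.37 ± 1.23 (adjusted p = 0.0221). Of 27 hypoxia-inducible genes 4 rose and 2 fell (7.03% and 13.0% of all genes), with a median of 0.11. Slc2a1, Ankrd37 (3.99 ± 0.52), Vegfa (3.95 ± 0.38) and Epas1, which encodes Hif-2 alpha (1.15 ± 0.27), rose, and P4ha1 (-2.50 ± 0.60) and Mxi1 fell. Familiar members such as Pdk1 (-0.81 ± 0.33), Car9 (-0.39 ± 0.45), Hif1a (0.32 ± 0.68) and Adm (0.83 ± 0.31) were not called. In glycolysis 4 of 23 rose and 0 fell, against 7.03% and 13.0% of all genes. The risers were Pfkp (3.98 ± 0.42, with its other probe at -0.19), Aldoa (1.76 ± 0.34), Pgam1 (1.69 ± 0.39) and Eno1 (1.59 ± 0.31). Ldha (-0.11 ± 0.74) and Pgk1 (0.04 ± 0.67) stood near 0 with a wide error. With a normal diet array left out the hypoxia rises numbered 0, 2 and 0, as did the glycolysis rises; without 7 week replicate 1, 7 hypoxia genes rose and 7 fell.

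Immediate early genes, which answer growth factors and stress within minutes, split. Of 28 measured members 6 rose and 3 fell (7.03% and 13.0% of all genes), with a median of 0.08. Jun (3.95 ± 0.91), Maff (3.76 ± 0.94), Egr1 (3.22 ± 0.41, adjusted p = 0.0117), Ier3 (3.19 ± 0.42), Fosb (2.87 ± 0.32) and Fos (2.18 ± 0.45) rose. Nr4a2 (-3.05 ± 0.53), Zfp36l1 (-2.34 ± 0.36) and Klf10 (-1.92 ± 0.42) fell, and Myc, a driver of growth, differed by 0.00 ± 0.40. Egr1 read 1.97, 1.11 and 0.50 at 7 weeks against -2.02, -1.95 and -2.10, so the rise was on every array. Risers of this list numbered 0, 3 and 0 without a normal diet array, and 3 without 7 week replicate 2.

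Of 55 measured genes of mitophagy and autophagy 8 fell and 1 rose, a share of falls near the 13.0% of all genes, and the median was -0.03, or -0.36 among those under 20% of saturation and -0.50 against normal diet replicate 3 alone. The lipid-binding Wipi1 (-2.38 ± 0.55), the starting kinase Ulk2 (-2.20 ± 0.43), the mitochondrial receptors Fundc1 (-1.99 ± 0.48) and Bcl2l13 (-1.92 ± 0.30) and the proteases Atg4a (-1.54 ± 0.42), Atg4b (-1.29 ± 0.34) and Atg4c (-1.20 ± 0.26) were among those that fell. Fis1, of mitochondrial fission, rose by 1.16 ± 0.27 (0.36 unscaled) and lies between 20% and 40% of saturation. Bnip3l, the receptor Nix that reticulocytes need to clear mitochondria, read 7.72, 8.12 and 8.13 against 8.31, 7.65 and 8.03, a difference of 0.01 ± 0.31 (-0.80 unscaled). Pink1, a kinase that marks damaged mitochondria, differed by 0.56 ± 0.74, Ulk1 by 0.75 ± 0.41, Map1lc3b by 0.03 ± 0.58 and Sqstm1 by -0.84 ± 0.96. The median per 7 week array was 0.46, -0.77 and -0.17, highest on replicate 1; without it 10 fell and 1 rose and the median was -0.52. The falls of the list numbered 0, 2 and 0 without a normal diet array, and 4 without 7 week replicate 2.

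Among 24 Bcl2 family genes and their caspase partners 5 fell and 1 rose (13.0% and 7.03% of all genes), with a median of -0.80. That median was -0.40 without 7 week replicate 1, and 0.01 over the 19 members with a probe above background on all 6 arrays. Xiap, which inhibits caspases, read 5.37, 5.10 and 4.65 on normal diet and 1.59, 2.51 and 2.15 at 7 weeks. It fell on every array, by 2.96 ± 0.36 (adjusted p = 0.0117). Bid, which links death receptors to the mitochondrion, fell by 4.07 ± 0.41 (adjusted p = 0.00852), and Bik fell by 1.96 ± 0.54. At 7 weeks Bid was well above background on 2 arrays and Bik on 1. Under another background correction (normexp) their differences were -3.20 and -1.08. Bcl2a1d rose by 1.41 ± 0.36, while Bcl2 (0.58 ± 0.42), Mcl1 (-0.04 ± 0.31) and Bax (0.84 ± 0.33) were not called. The fallers included genes that promote apoptosis and Xiap, which opposes it. They numbered 0, 4 and 0 without a normal diet array, and 11 without 7 week replicate 1.

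Of 79 nuclear subunits of the respiratory chain and ATP synthase 8 rose and 2 fell, against 7.03% and 13.0% of all genes, with a median of 0.62 that was 0.20 under quantile normalization and -0.18 without scaling. Ndufa7, a subunit of complex I, read 4.98, 5.12 and 4.90 on normal diet and 7.00, 6.44 and 6.84 at 7 weeks, a rise of 1.76 ± 0.29 (adjusted p = 0.0162) in a gene under 20% of saturation. Ndufa11 (1.28 ± 0.28), Ndufa6 (1.24 ± 0.33) and Ndufa2 (1.19 ± 0.26; 0.38 unscaled), of the same complex, and Cox4i1 of complex IV (1.05 ± 0.29; 0.25 unscaled) rose, while Sdhd of complex II (-1.34 ± 0.38) was among the fallers. Replicate 1 was the lowest 7 week array for 63 of 79 subunits (median 0.06 against 0.83 and 0.89), and without it 37 rose. Rises of these subunits numbered 0, 1 and 0 without a normal diet array, and 1 and 3 without 7 week replicates 2 and 3.

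Of 78 cytosolic ribosomal proteins 30 rose and 0 fell (7.03% and 13.0% of all genes), with a median of 0.88. All but 3 members lie at 20% of saturation or more, and the median was 0.15 under quantile normalization, where 2 rose, and 0.07 without scaling, where 0 rose. Their rise therefore depended on the scaling. Rpl19 had the largest difference, 1.54 ± 0.26 (0.74 unscaled), and read 6.81, 6.60 and 6.60 against 8.09, 8.37 and 8.16. Mitochondrial ribosomal proteins, which are dimmer, had 3 rises and 2 falls among 78 (7.03% and 13.0% of all genes) and a median of -0.05. Their medians per 7 week array were -0.99, 0.26 and 0.47, and without replicate 1, 16 rose and 4 fell with a median of 0.39. Neither list had a call without any 1 normal diet array. Of the cytosolic proteins 2 and 15 rose without 7 week replicates 2 and 3, against 49 without replicate 1.

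Stress and interferon genes differed between 7 week replicate 1 and the other two arrays. Nupr1, a stress-induced nuclear protein and a target of Atf4, read -3.15, -2.75 and -2.14 on normal diet and 8.43, 3.72 and 3.44 at 7 weeks. All 3 arrays were above normal diet and replicate 1 was the highest by over 4 units; the rise was 7.88 ± 1.29 (adjusted p = 0.0163), 235-fold. Of 36 genes of the integrated stress response, the pathway that eIF2 alpha kinases start, 2 rose and 2 fell (7.03% and 13.0% of all genes). Nupr1 and Cbs (1.80 ± 0.43) rose. Eif2ak4, the kinase Gcn2 (-2.20 ± 0.53), and Slc7a1, a transporter of basic amino acids (-1.40 ± 0.36), fell. Ddit3, which encodes Chop, read 9.06, 3.87 and 4.16 at 7 weeks, and its difference of 1.77 ± 1.32 was not called, nor was that of Asns (-0.24). Trib3 read 9.22, 1.30 and 3.36 and Atf3 read 3.79, -2.24 and -4.42. The median of the list was 0.99 on replicate 1 against -0.80 and 0.03, and 28 of 36 members were highest there. Without replicate 1, 5 rose and 5 fell and the median of differences was -0.23, from 0.25; without a normal diet array the rises numbered 0, 1 and 0 and the falls 0.

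All 30 interferon-stimulated genes measured were highest on replicate 1 among the 7 week arrays. Their median was 2.52 on that array and -1.17 and -1.12 on replicates 2 and 3, so the same list lay above normal diet on one array and below it on the other two. Oas2, an antiviral enzyme, read 5.15, -5.72 and -1.96, and Ifit1 read 5.24, -2.49 and -1.32. Of the 30 members 2 rose and 0 fell (7.03% and 13.0% of all genes), with Zbp1 (1.79 ± 0.41) among the risers. Without 7 week replicate 1, 2 rose and 12 fell, with a median of -1.35, and without any 1 normal diet array 0 were called in either direction (limma; 4 at an unadjusted p under 0.05 with all arrays). Ndrg1, a gene known to rise in hypoxia, read 3.72, -3.94 and -2.92 at 7 weeks, and its difference of 0.01 ± 1.87 turned to -2.37 (adjusted p = 0.0159) without replicate 1.

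**Figure D4:**
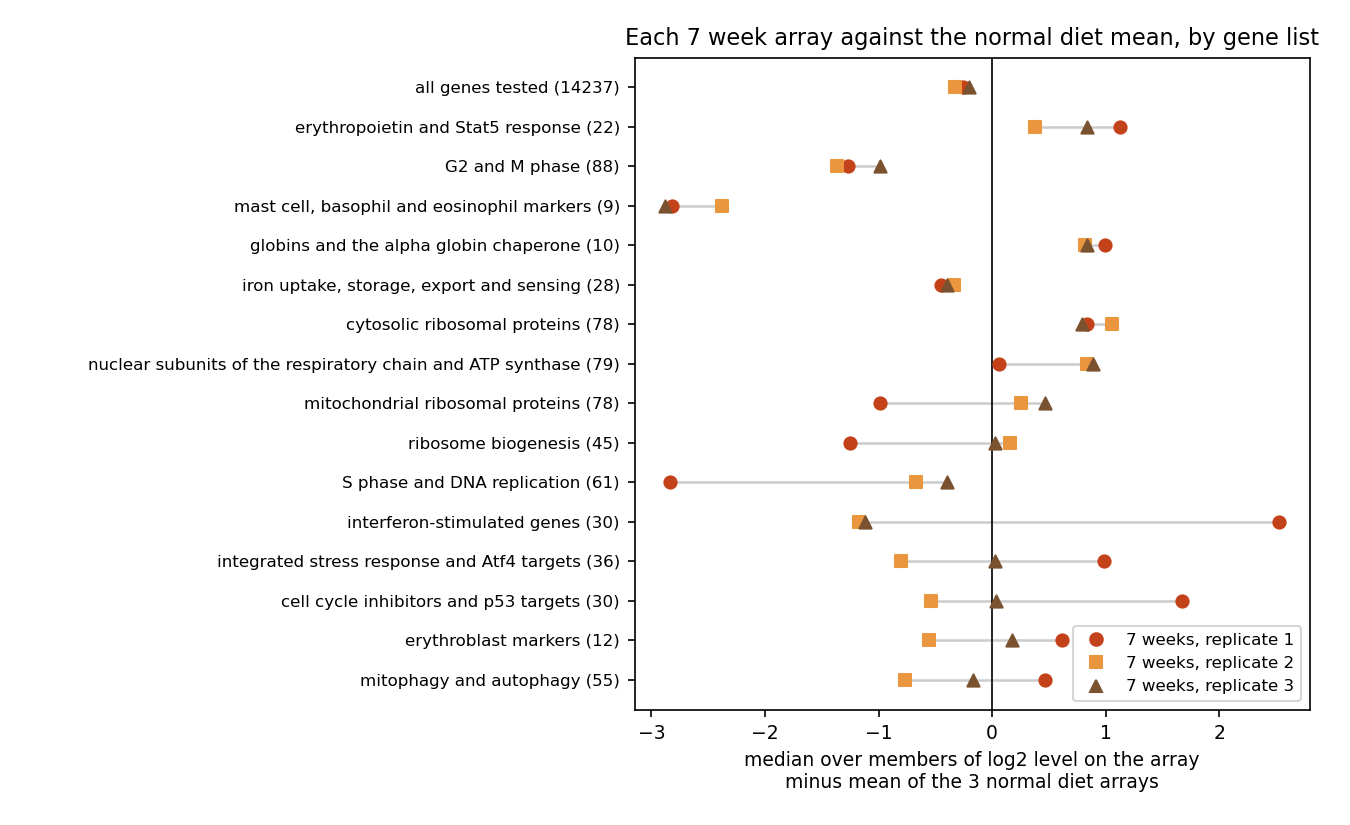
Median over all genes tested, and over the members of 15 gene lists, of each 7 week array's level minus the normal diet mean (log2), with a point per 7 week replicate. The G2 and M phase medians lie together (-1.27, -1.37 and -0.99), whereas the interferon list has 2.52 on replicate 1 and -1.17 and -1.12 on the others.

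Calls in the remaining 8 lists stand beside 7.03% of all genes higher and 13.0% lower. Of 42 antioxidant genes and targets of Nrf2 and Bach1 2 rose, Gss of glutathione synthesis (2.08 ± 0.34) and the bright Prdx2 (1.03 ± 0.28; 0.23 unscaled), and 4 fell, among them Gclc (-1.42 ± 0.31) and Keap1 (-1.18 ± 0.27), the repressor of Nrf2. Of 27 heat shock genes and chaperones Bag3 rose (2.57 ± 0.59) and 4 fell, including the endoplasmic reticulum proteins Pdia3 (-1.78 ± 0.48) and Dnajc3 (-1.76 ± 0.36). Sterol synthesis had Hsd17b7 higher (1.35 ± 0.33) and Fdft1 (-2.01 ± 0.35) and Nsdhl (-1.61 ± 0.45) lower among 25. Amino acid transporters had 2 rises and 3 falls among 18, and Smad5, which carries BMP signals, fell by 2.93 ± 0.71 as the 1 call among 14 BMP and Id genes. Of 20 aminoacyl tRNA synthetases 1 fell, as did 1 of 45 ribosome biogenesis genes, and 2 of 46 replication-dependent histones rose. Without any 1 normal diet array 0 members of these 8 lists were called, except 1 fall each in the heat shock and sterol lists without replicate 2.

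The largest rises outside these lists, among genes above background on all 6 arrays, included Gmpr and Cda. Gmpr, GMP reductase, read -4.49, -4.75 and -4.57 on normal diet and 0.50, 2.63 and 4.30 at 7 weeks, a rise of 7.08 ± 0.88. Cda, cytidine deaminase, read -3.05, -4.66 and -3.65 against 0.57, 3.97 and 4.27, a rise of 6.72 ± 1.01. In both genes replicate 1 was the lowest of the 7 week arrays, and at 3 weeks neither was above -2.40. The tubulin Tubb3 (6.25 ± 0.95), the phosphatase Ppm1e (6.16 ± 0.48), Tnfrsf13c, a receptor known from B cells (5.63 ± 0.39), and Ankrd36 (5.33 ± 0.40) followed. Sqor, which oxidises sulfide in mitochondria, had the largest fall, from 4.97, 4.59 and 4.19 to -1.84, 0.01 and -1.42. Gatm, of creatine synthesis, went from 4.53, 4.49 and 4.34 to -2.04, 0.38 and -0.14. Sqor fell by 5.67 and Gatm fell by 5.05 on the log2 scale, and Suox, sulfite oxidase, fell by 3.96. Cgn (-4.64), Ezr (-4.47), which ties actin to the membrane, and the glycosyltransferase Fut8 (-3.74) were also among the 10 largest falls of such genes.

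Genes measured on 1 diet only have a bound. All 9 tested genes that were not above background on any normal diet array were called higher, and 385 of 1356 tested genes that were not above background on any 7 week array were called lower. Such genes entered the test only through the diet on which they were high, so these counts support nothing by themselves. Atp6v0d2, a subunit of the proton pump, was at least 48.5-fold higher, Ndrg4 at least 42.6-fold and the endocytic adaptor Dab2 at least 16.7-fold. In the other direction the lectin Cd209f was at least 29.7-fold lower, Psd3 at least 24.3-fold and Aldh3b2 at least 21.6-fold. Fewer spots were above background at 7 weeks, as given above, and the part of this in the counts was not tested.

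Markers of erythroblasts and of other marrow cells were read on the same arrays. All 12 measured erythroblast markers were well above background on every array, and their summed signal, in multiples of the 75th percentile, was 2188 to 2360 on normal diet and 2750 to 4191 at 7 weeks. Without that division every 7 week sum lay below every normal diet sum for these markers and for the neutrophil, B lineage and megakaryocyte lists, and the median difference of the erythroblast markers went from 0.01 to -0.79, so the direction depended on the scaling. By limma 1 of 12 was called, lower. Neutrophil markers were present in both groups, with sums of 465 to 937 and 583 to 887, and Elane, neutrophil elastase, rose by 2.60 ± 0.45 (adjusted p = 0.0176) while Mpo differed by -2.88 ± 1.88 and S100a8 by 0.15 ± 0.48. Macrophage and monocyte markers had sums of 42.3 to 62.9 and 25.1 to 31.6. Adgre1 (-1.75 ± 0.29), Vcam1 (-1.99 ± 0.36) and Mrc1 (-2.30 ± 0.61) were lower among 15 (13.0% of all genes fell), and C1qb differed by 0.39 ± 0.30. Without a normal diet array 0, 2 and 0 were called. Adgre1, Vcam1 and Mrc1 mark the macrophages of erythroblastic islands. Their part in the falls of other genes was not tested.

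Markers of mast cells, basophils and eosinophils were lower in sum at 7 weeks. Their summed signal was 16.4 to 27.0 on normal diet and 1.71 to 2.11 at 7 weeks, but 5 of the 9 measured members, Cpa3, Mcpt8, Epx, Fcer1a and Siglecf, were not well above background on any 7 week array and entered the test only through normal diet. Over the 3 members above background on all 6 arrays, Ccr3 (-2.59 ± 0.34, adjusted p = 0.012) and Prss34 (-2.58 ± 0.73, adjusted p = 0.0498) fell and Tpsb2 differed by 0.15 ± 0.29. Prg2, the major basic protein of eosinophil granules, fell by 7.36 ± 0.85 (adjusted p = 0.0108), above background on 2 of the 3 arrays at 7 weeks. Without a normal diet array 0, 4 and 1 members of the list were called. B lineage sums overlapped, at 10.4 to 15.5 and 6.35 to 19.4, as did megakaryocyte sums, at 25.7 to 61.8 and 15.3 to 49.1, where the platelet receptor Gp6 rose by 3.68. T and NK sums were 19.4 to 21.6 and 23.1 to 45.5, where Cd4 rose by 1.68 with its other probe at -0.10. The part of these cells in genes of the other lists was not tested.

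**Figure D5:**
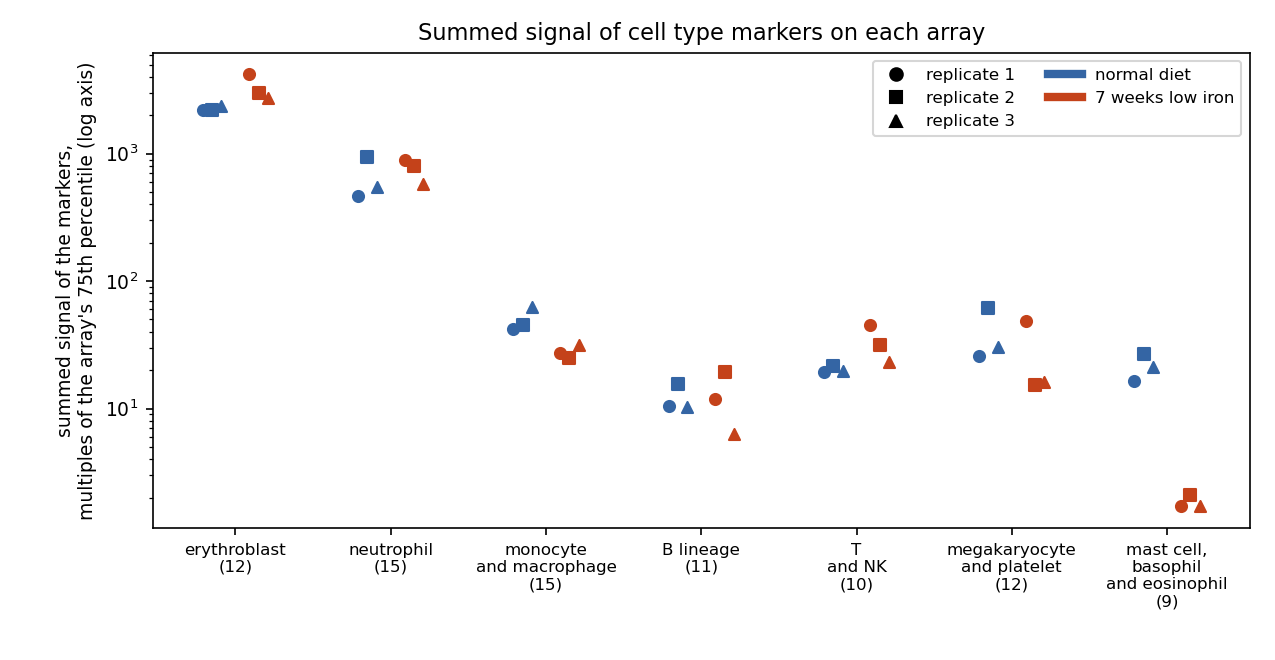
Summed signal of the measured markers of 7 cell types on each array, in multiples of the array's 75th percentile, on a log axis, with a point per array of each diet. Mast cell, basophil and eosinophil markers lie at 16.4 to 27.0 on normal diet and at 1.71 to 2.11 at 7 weeks, while the neutrophil sums of the diets overlap on this scale (and do not without the division).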

How the data were processed

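The authors' scanner files, per the file headers, were made with Agilent Feature Extraction 10.7.3.1 and hold 1 intensity per spot (gProcessedSignal), background-subtracted and detrended within each array and not scaled between arrays. A series table deposited by the authors gives log2 values centred on each probe, with the normalization before centring not given in the sources used here; it was used as an alternative only (correlation with the scanner differences 0.997 to 0.999). The number of arrays, 3 a group, limits the precision.

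Control spots and outlier flags were left out, replicate spots averaged, and log2 intensities reduced by each array's 75th percentile. Of 55681 probes 26413 matched a RefSeq symbol by accession. Probes well above background on all 3 arrays of a diet were kept, and the brightest over the 6 arrays stood for a gene (21 called genes have another probe called in the opposite direction). The diets were compared by a two-sided moderated linear model (limma 3.58.1, R 4.3.3), with Benjamini-Hochberg adjustment over all genes, after a check on simulated data. Brightness classes are percent of the scanner's saturation value. Promoters span 250 bases before to 50 after the most upstream RefSeq start (GRCm38.p6), and motifs were searched on both strands.

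The samples and the 29 process and 7 marker lists were chosen with earlier results of these data known, so lists are described by counts and medians with no test of the set. Genes named are the 10 largest rises and falls above background on all arrays and under 20% of saturation, the 5 largest bounds each way, up to 4 called members of each list and direction with set key genes, the sex-linked genes and the 5 members most variable at 7 weeks; other members are named to complete a count or a complex, after their values were seen. A small number of genes that count in the lists are not reported here by name. Alternatives were another background correction, other scalings, filters and probes, the deposited table, all 9 arrays, each array left out, a replicate block and, chosen after seeing the data, array weights.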

Additional observations from a re-analysis of the deposited data

How the results depend on the processing

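The direction of all 2855 called genes held under quantile normalization, centring on the median and no scaling. Centring and no scaling each moved every difference by the same amount (median over all genes -0.24 and -1.08, from -0.28). Falls could therefore not turn without scaling, nor rises with centring. Direction was also bound to hold with the replicate block, array weights and each array left out, because the diets overlap in none of these genes. It turned for 49 genes with normexp, run on the median signal as the files hold no mean signal. With the mean over probes it turned for 14 and with all 9 arrays for 4. It turned for 2 with the authors' deposited table, 2 of 2210 with only probes above background on all 6 arrays and 1 with no filter. Without scaling 5777 genes were called (315 higher, 5462 lower), 4 erythropoietin genes rose and 73 G2 and M phase genes fell. With no filter 6115 were called, 3911 higher. Higher calls were 1558 with all 9 arrays and 1512 with normexp. Leaving out 1 array gave 2 to 4360 calls (1 to 1479 higher, 1 to 2881 lower), 1 to 7 erythropoietin rises and 0 to 55 G2 and M phase falls. Against normal diet replicate 3 alone all 5 counts were 0 (limma; 1536 genes at an unadjusted p under 0.05). With the replicate block 3 genes were called, 1 higher and 2 lower, with 1 erythropoietin rise and 0 G2 and M phase falls (4823 unadjusted); same-numbered arrays had deviations correlated at -0.13, 0.17 and -0.12, so the numbers are not treated as pairs. Array weights gave 3652. Ndrg1 (0.01) ranged from -2.37 without 7 week replicate 1 to 1.46 without replicate 2. The cause of these moves was not tested. At 7 weeks 45.2% to 53.6% of spots were well above background, which limits dim genes.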
